A study of Mus musculus with 22 samples.

Results

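The 10 genes described here encode the major histocompatibility complex (MHC) class I antigen presentation pathway: the heavy chains H2-K1 and H2-D1, the light chain B2m, the peptide transporter Tap1 and Tap2, the loading factor Tapbp, the immunoproteasome subunits Psmb8, Psmb9 and Psmb10, and the regulator Nlrc5. They were found by exact gene symbol, 10 of 10, among 34866 genes in the tables of cultured chondrocytes and among 23911 genes in the table of cartilage tissue. RNA was measured in 22 mouse samples. Control samples carried Dnmt1 flox, and conditional knockout (cKO) cultures carried Prrx1-Cre;Dnmt1 flox/flox; the cartilage labels give only flox and cKO. Dnmt1 is the enzyme that copies DNA methylation onto the new strand after replication, and the Prrx1 promoter drives Cre in limb mesenchyme, so cells of other origin in a sample would keep their floxed Dnmt1. The cultures were primary chondrocytes of knee articular cartilage from mice at postnatal day 3 to 5. They were taken untreated at day 0 (3 control and 3 cKO samples) or after 3 days of BMP2, a growth factor that drives chondrocyte differentiation, at a dose the labels give as 100 ng/µl (day 3, with 4 control and 4 cKO samples). Cartilage came from postnatal day 5 mice and was treated with collagenase to remove connective tissue (4 control and 4 cKO samples, replicates 1 and 2 male, 3 and 4 female).

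MHC class I molecules display short peptides of the cell's own proteins on its surface to CD8 T cells. The proteasome cuts the peptides, TAP carries them into the endoplasmic reticulum, and tapasin helps to load them onto a heavy chain paired with beta-2 microglobulin. Interferons raise these genes together, in part through IRF1, and NLRC5 is the transactivator that binds class I promoters with RFX proteins.

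The day 0 libraries held 41749327 to 51741478 counts, the day 3 libraries 14434197 to 18918714 and the cartilage libraries 1100198 to 1888896, where low genes are therefore measured least precisely. Dnmt1 itself was lower in cKO by a log2 fold change of -2.44 at day 0, -1.41 at day 3 and -1.66 in cartilage, with no overlap between genotypes in any of the 3 settings. The cartilage value depends on the table: Dnmt1 stood at 42.5 ± 6.18 CPM in control and 13.2 ± 1.09 CPM in cKO by whole-number counts, and at 52.9 ± 7.60 and 30.6 ± 3.30 CPM by estimated counts (SD, n = 4), again without overlap. Levels below are CPM, counts scaled to the size of the library. The summed level of 8 chondrocyte markers was 146100 to 154300 CPM in control and 53780 to 65170 CPM in cKO cultures at day 0, 96000 to 116800 against 1670 to 17460 CPM at day 3, and 67100 to 100100 against 32200 to 61380 CPM in cartilage. Of these 8 markers, 8 were lower in cKO at both days and 2 in cartilage. By the same test, described below, 31.6% of all genes were called lower at day 0, 22.6% at day 3 and 3.04% in cartilage. In cKO day 3 cultures Matn1 had 0 counts in the lowest library, so the labelled cell type was least well marked there. The library of cKO day 3 replicate 4 stood apart. It held the 1670 CPM of chondrocyte markers against 12470 CPM or more in the other cKO day 3 libraries, and 118.8 CPM of 5 myoblast markers against 860.1 to 1484 CPM. In cartilage the 4 control libraries lay in library pool 1 and the 4 cKO libraries in pool 2, so pool and genotype cannot be told apart. The labels call the culture replicates biological but name no animals, and p-values then measure only the spread between these samples. In bulk RNA, fewer cells of a type and less RNA per cell cannot be told apart.

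On the build GRCm38, 7 of the 10 genes lie on chromosome 17. H2-K1 spans 33996017 to 34000347, Tapbp 33915899 to 33929292, Psmb9 34181987 to 34187764, Tap1 34187553 to 34197225, Psmb8 34197721 to 34201454, Tap2 34203527 to 34216321 and H2-D1 35262730 to 35267499. Psmb10 lies on chromosome 8 from 105935735 to 105938444, Nlrc5 on chromosome 8 from 94434356 to 94527272, and B2m on chromosome 2 from 122147686 to 122153083. All 10 are protein-coding. Exons of Tap1 and Psmb9 overlap on opposite strands, those of Tap2 and Psmb8 overlap the gene model Gm20496 on the opposite strand, and those of Tapbp overlap Zbtb22 on the same strand. Nlrc5 exons overlap 9330175E14Rik on the opposite strand. How the authors' counting treated strand is not given in the sources used here, so values of these genes may hold reads of their partners. The coding transcripts of H2-K1 and H2-D1 were 88.4% identical over 1515 aligned columns. Of the stretches of 81 bases in a transcript, the length of a cartilage read, 0.78% in H2-K1 and 6.33% in H2-D1 also occurred in another gene, and none did in the last 400 bases of either.

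Promoters are shown because class I promoters are known for a shared set of regulatory elements, and because H2-K1, H2-D1 and B2m had a larger genotype effect at day 3 than at day 0 (values below), which was not shown for Tap1. RefSeq (GRCm38.p6) gave windows of 300 bases, from 250 before to 50 after the start site, for 8 of the 10 genes, all but Tap2 and Nlrc5. In the sequences below, 5′ to 3′ on the gene's strand, capitals mark matches on either strand to an interferon regulatory factor core (AANNGAAA), an NF-kB element (GGGNNTTCC), a cyclic AMP response element half-site (TGACG) or a CCAAT box (CCAAT).
H2-K1, chr17:34000298-34000597, minus strand: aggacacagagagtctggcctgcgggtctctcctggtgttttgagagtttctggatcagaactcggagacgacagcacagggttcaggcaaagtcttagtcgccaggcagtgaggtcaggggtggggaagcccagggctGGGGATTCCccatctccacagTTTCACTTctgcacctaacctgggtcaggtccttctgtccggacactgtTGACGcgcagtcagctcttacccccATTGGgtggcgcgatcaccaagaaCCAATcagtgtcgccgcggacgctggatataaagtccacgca
H2-D1, chr17:35262844-35263143, plus strand: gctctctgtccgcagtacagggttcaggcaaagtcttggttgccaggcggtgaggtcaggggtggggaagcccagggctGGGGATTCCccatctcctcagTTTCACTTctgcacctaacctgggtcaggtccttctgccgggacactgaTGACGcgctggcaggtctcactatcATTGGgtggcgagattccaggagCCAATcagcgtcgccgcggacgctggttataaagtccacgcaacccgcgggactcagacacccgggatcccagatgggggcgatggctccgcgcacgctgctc
B2m, chr2:122147437-122147736, plus strand: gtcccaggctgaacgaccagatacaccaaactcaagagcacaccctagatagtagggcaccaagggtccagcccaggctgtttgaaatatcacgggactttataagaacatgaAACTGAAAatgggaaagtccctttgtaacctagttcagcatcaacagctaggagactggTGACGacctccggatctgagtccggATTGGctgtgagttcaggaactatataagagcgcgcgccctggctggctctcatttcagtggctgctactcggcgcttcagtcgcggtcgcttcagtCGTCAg
Tap1, chr17:34187306-34187605, plus strand: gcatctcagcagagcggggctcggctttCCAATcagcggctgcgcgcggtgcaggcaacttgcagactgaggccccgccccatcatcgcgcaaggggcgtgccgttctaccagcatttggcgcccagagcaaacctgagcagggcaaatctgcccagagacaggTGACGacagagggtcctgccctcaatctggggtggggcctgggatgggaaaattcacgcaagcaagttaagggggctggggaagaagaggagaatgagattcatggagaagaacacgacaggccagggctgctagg
The H2-K1 and H2-D1 windows were 90.4% identical over 228 aligned columns and held the same 5 elements in the same order. Relative to the annotated start site the NF-kB element began at -111 in H2-K1 and at -171 in H2-D1, the interferon regulatory factor core at -90 and -150, and the half-site at -41 and -101. These distances depend on the start annotated for each gene: the last CCAAT box began at 8 in H2-K1, after its start, and at -53 in H2-D1. B2m held the core at -137, a CCAAT box at -53 and half-sites at -78 and 44, with no match to the NF-kB letters. The Tap1 window carried a CCAAT box at -222 and a half-site at -86, and 275 of its 300 bases are also the promoter window of Psmb9, read on the other strand. Of the 8 genes, 3 held the interferon regulatory factor core (H2-K1, H2-D1 and B2m), against 23.9% of 32851 promoters. The NF-kB letters occurred in 2 of 8, against 5.82%, the half-site in 5 of 8, against 20.8%, and the CCAAT box in 6 of 8, against 37.4%. The 8 windows are not independent, so these counts cannot be read as enrichment. Tap1 and Psmb9 hold the same half-site and CCAAT box, each counted for both genes. The near-identical H2-K1 and H2-D1 windows supply both NF-kB matches and 2 of the 3 cores. A GAS element, a sequence named for interferon gamma activation (TTCNNNGAA), occurred in 1 of 8, Psmb8, at -97, against 8.30%. CpG sites, at which Dnmt1 can copy methylation that is already present, numbered 14 in H2-K1, 19 in H2-D1, 14 in B2m, 15 in Tap1, 17 in Psmb9, 11 in Tapbp, 11 in Psmb8 and 3 in Psmb10, against a median of 7 over all promoters. Of all promoters, 58.6% to 71.9% had fewer CpG sites than each of these windows except that of Psmb10, where 23.3% had fewer. Matches describe the letters of these windows; methylation was not analysed here.

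Most of the class I genes were higher in cKO in each of the 3 settings and none was called lower. In the plot of genotype effects, values are log2 fold changes from the quasi-likelihood test of edgeR, and a gene was called at a Benjamini-Hochberg adjusted p under 0.05 over all genes tested. At day 0, 7 of 10 were higher in cKO, and the 10 had a median log2 value of 1.30. Over all genes tested at day 0, 64.5% were called in either direction and 33.0% were called higher, with a median of 0.01. At day 3, 9 of 10 were higher, with a median of 2.24, where 48.1% of all genes were called and 25.5% were called higher. In cartilage 7 genes had enough counts to be tested and 7 of 7 were higher, where 6.19% of all genes were called and 3.15% were called higher. Those 7 passed a filter on counts that high cKO values help to pass. At day 0 the 7 of 10 is near the share of all genes called in either direction and above the share called higher.

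**Figure D1:**
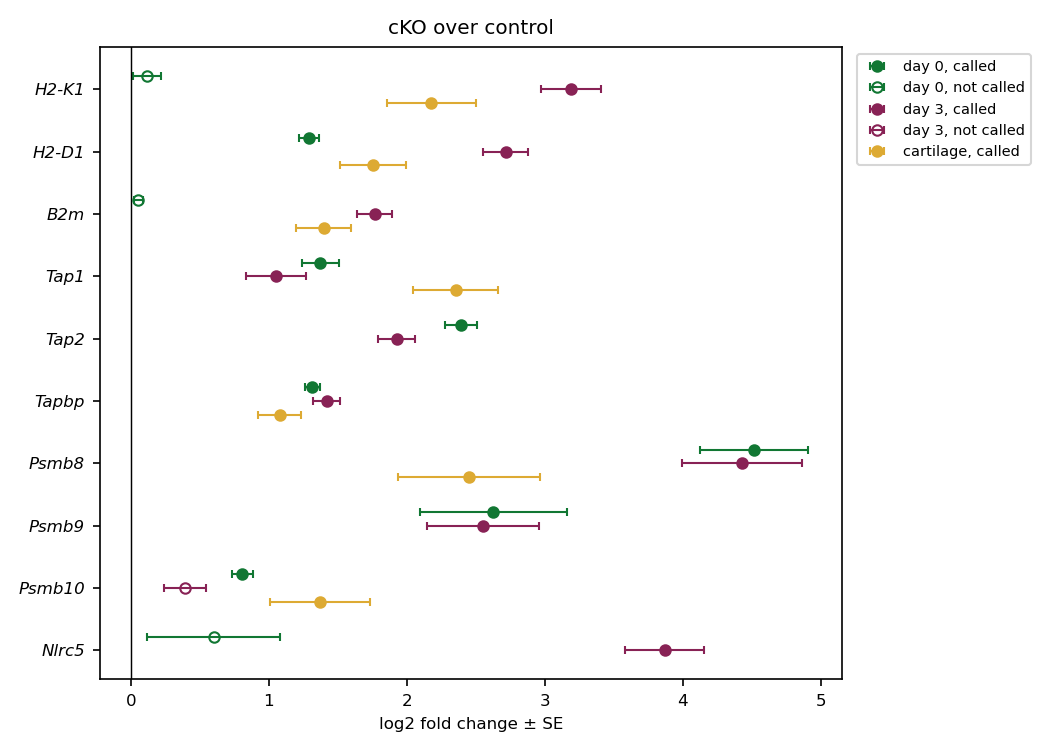
Log2 fold change of cKO over control for the 10 genes at day 0 (green), day 3 (purple) and in cartilage (yellow), with the standard error as bars; filled points passed an adjusted p under 0.05 and open points did not. H2-K1 and B2m sit near 0 at day 0 (0.12 and 0.05) and at 3.19 and 1.77 at day 3, while Psmb8 sits at 4.52 and 4.43.

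The heavy chains bind the peptide and face the T cell receptor. H2-K1 stood at 36.2, 39.8 and 44.0 CPM in control and 49.7, 43.1 and 37.7 CPM in cKO cultures at day 0. The groups overlapped, and the log2 fold change of 0.12 ± 0.10 (SE, 3 against 3 samples) did not pass the test (adjusted p = 0.333). After 3 days of BMP2, H2-K1 stood at 61.0, 51.4, 47.2 and 55.2 CPM in control and at 565.9, 476.1, 603.0 and 295.1 CPM in cKO cultures. Every cKO library lay above every control library, replicate 4 being the lowest of them. H2-K1 was 9.11-fold higher in cKO at day 3 (log2 fold change 3.19 ± 0.22, adjusted p = 1.97e-05).

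H2-D1, the other classical heavy chain, already differed at day 0. It stood at 32.0, 33.7 and 32.7 CPM in control and 89.6, 79.0 and 72.6 CPM in cKO cultures, a 2.44-fold difference (log2 1.29 ± 0.07, adjusted p = 6.89e-07). At day 3 the control libraries held 116.5, 103.3, 96.0 and 98.0 CPM and the cKO libraries 739.2, 674.5, 808.9 and 470.0 CPM. The groups again did not overlap, and the fold was 6.57 (log2 2.72 ± 0.17, adjusted p = 1.10e-05).

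B2m is the invariant light chain that classical heavy chains need to reach the surface. Its libraries overlapped between genotypes at day 0. Control libraries held 88.5, 85.5 and 83.5 CPM and cKO libraries 88.0, 91.1 and 88.6 CPM (log2 0.05 ± 0.03, adjusted p = 0.196). At day 3 the values were 264.3, 249.3, 249.6 and 231.0 CPM in control and 930.8, 780.5, 975.0 and 664.3 CPM in cKO cultures. The groups did not overlap at day 3, and B2m was 3.40-fold higher in cKO (log2 1.77 ± 0.13, adjusted p = 2.47e-05).

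The genes that carry and load the peptide differed at both days. Tap1, which forms the transporter with Tap2, stood at 3.91, 3.85 and 2.82 CPM in control and 9.97, 9.16 and 8.40 CPM in cKO cultures at day 0 (log2 1.37 ± 0.13, adjusted p = 1.96e-05). At day 3 it stood at 30.6, 25.4, 27.4 and 25.7 CPM in control and 66.7, 61.4, 65.2 and 30.7 CPM in cKO cultures. The lowest cKO library, replicate 4, exceeded the highest control library only narrowly, and the log2 fold change was 1.05 ± 0.22 (adjusted p = 0.00441), or 1.24 without replicate 4. Tap2, the other subunit of the transporter, stood at 2.64, 2.94 and 2.195 CPM in control and 14.6, 13.8 and 12.7 CPM in cKO cultures at day 0. Its fold at day 0 was 5.25 (log2 2.39 ± 0.12, adjusted p = 3.07e-07). At day 3 the Tap2 values were 18.9, 20.3, 20.1 and 15.6 CPM against 77.2, 73.0, 78.3 and 53.4 CPM, a 3.80-fold difference (log2 1.93 ± 0.14, adjusted p = 2.25e-05). Tapbp encodes tapasin, which bridges TAP and the heavy chain. It was 2.49-fold higher in cKO at day 0 (37.3 ± 2.28 against 93.1 ± 4.90 CPM, SD, n = 3; log2 1.31 ± 0.06 SE) and 2.68-fold higher at day 3 (78.2 ± 7.82 against 206.9 ± 16.3 CPM, SD, n = 4; log2 1.42 ± 0.10 SE). Tap1, Tap2 and Tapbp were thus separated by genotype in every library of both days.

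Psmb8, Psmb9 and Psmb10 replace the constitutive catalytic subunits Psmb5, Psmb6 and Psmb7 and turn the proteasome into the immunoproteasome. Psmb8 was close to undetected in control cultures at day 0, with 0.0437, 0.0634 and 0.116 CPM, which are 2, 3 and 5 counts. The cKO libraries held 2.28, 1.72 and 1.26 CPM, from 95, 75 and 65 counts, and the log2 fold change was 4.52 ± 0.39 (adjusted p = 9.41e-06), resting on those few control counts. At day 3 Psmb8 stood at 0.960, 1.41, 1.26 and 0.857 CPM in control and 28.7, 29.9, 30.2 and 8.48 CPM in cKO cultures. Replicate 4 was again the lowest cKO library and still lay above every control library. The day 3 fold was 21.5 (log2 4.43 ± 0.43, adjusted p = 1.05e-04), and the log2 value was 4.69 without replicate 4. Psmb9 stood at 0.0656, 0.169 and 0.0462 CPM in control and 0.889, 0.597 and 0.349 CPM in cKO cultures at day 0 (log2 2.63 ± 0.53, adjusted p = 0.00193), and the value ran from 2.26 to 3.36 when single libraries were left out. At day 3 it stood at 1.03, 0.869, 1.32 and 0.857 CPM in control and 7.65, 7.36, 6.78 and 2.08 CPM in cKO cultures (log2 2.55 ± 0.41, adjusted p = 0.00119). Psmb8 and Psmb9 were separated by genotype in every library at both days. Psmb10 moved least. It was 1.75-fold higher in cKO at day 0 (7.89, 7.31 and 8.34 against 14.7, 13.3 and 13.3 CPM; log2 0.81 ± 0.08, adjusted p = 1.92e-05). At day 3 its libraries overlapped, with 14.9, 12.7, 13.0 and 14.8 CPM in control and 17.7, 21.2, 20.4 and 12.7 CPM in cKO cultures. The log2 value of 0.39 ± 0.15 at day 3 did not pass the test (adjusted p = 0.0631), and without cKO replicate 4 it was 0.51 and passed (adjusted p = 0.00183).

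Nlrc5 was low in all cultures at day 0, with 0.262, 0.338 and 0.601 CPM in control and 1.03, 0.505 and 0.310 CPM in cKO libraries. The groups overlapped (log2 0.60 ± 0.48, adjusted p = 0.300), and the log2 value ran from 0.01 to 0.99 when single libraries were left out. At day 3 it stood at 1.92, 0.923, 1.08 and 0.594 CPM in control and 15.9, 16.4, 17.6 and 15.2 CPM in cKO cultures. The cKO libraries were close together, replicate 4 included, and far above the controls (14.6-fold, log2 3.87 ± 0.28, adjusted p = 2.66e-05). H2-K1, B2m and Nlrc5 were thus the 3 genes that did not pass at day 0 and did at day 3.

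**Figure D2:**
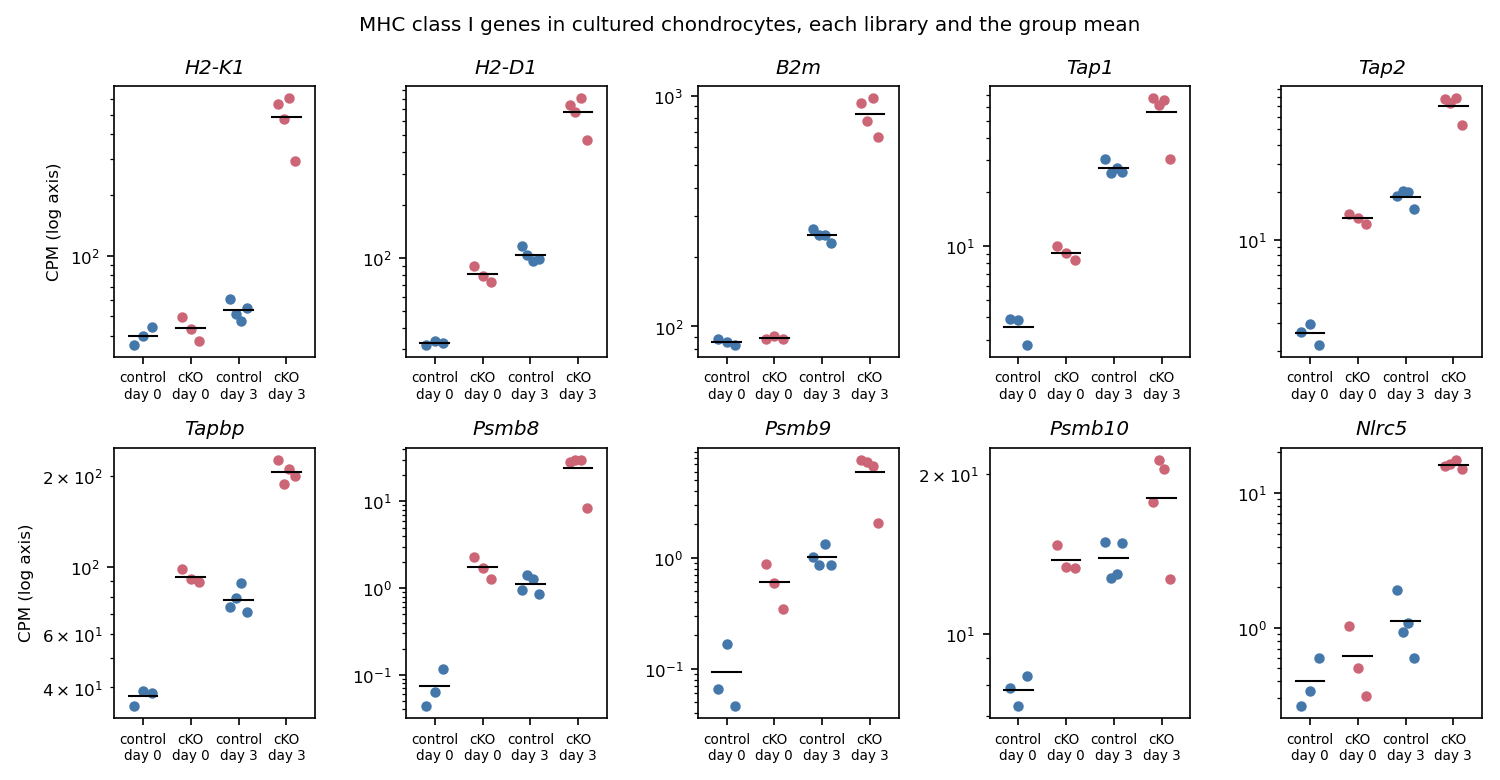
CPM of each of the 10 genes in every culture library on log axes that differ between panels, with control in blue, cKO in red and the group mean as a black line. The lowest cKO day 3 point in Tap1, Psmb8 and Psmb9 is replicate 4, at 30.7, 8.48 and 2.08 CPM.

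Day 0 and day 3 cultures were also compared within each genotype, in 1 fit of the 14 cultures. Day, BMP2 and count table changed together and cannot be told apart, and the comparisons share samples with those above. In control cultures 9 of 10 genes were higher at day 3, where 56.9% of all genes were called and 28.1% were called higher, and in cKO cultures 10 of 10 were, where 62.2% were called and 32.4% were called higher. The median log2 change was 1.60 in control and 3.15 in cKO cultures, against 0.00 and 0.02 over all genes. Nlrc5 was 2.79-fold higher at day 3 in control (log2 1.48 ± 0.45, adjusted p = 0.0122) and 26.6-fold in cKO cultures (log2 4.74 ± 0.42). The Nlrc5 change in control no longer passed without control day 0 replicate 1 (log2 1.25, adjusted p = 0.0529). H2-K1 did not pass in control cultures, although its libraries did not overlap between days (log2 0.42 ± 0.20, adjusted p = 0.0840), and was 11.2-fold higher in cKO cultures (log2 3.48 ± 0.22). Without cKO day 3 replicate 4, which is not a control library but shares the fit, the control change of 0.42 passed (adjusted p = 0.00473). H2-D1 was 3.15-fold higher at day 3 in control (log2 1.66 ± 0.15) and 8.37-fold in cKO cultures (log2 3.07 ± 0.16). B2m was 2.90-fold higher in control (log2 1.53 ± 0.11) and 9.39-fold in cKO cultures (log2 3.23 ± 0.12).

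The transporter, tapasin and immunoproteasome genes were higher at day 3 in both genotypes. Tap1 was higher at day 3 by a log2 value of 2.95 ± 0.24 in control and 2.61 ± 0.23 in cKO cultures, and Tap2 by 2.85 ± 0.16 and 2.37 ± 0.14. Tapbp changed by 1.07 ± 0.09 and 1.15 ± 0.09. Psmb8 changed by 3.87 ± 0.65 and 3.80 ± 0.41, and Psmb9 by 3.37 ± 0.60 and 3.29 ± 0.47, from few control counts at day 0. Psmb9 in control ran from 3.06 to 4.08 when single libraries were left out. Psmb10 changed by 0.82 ± 0.15 and 0.39 ± 0.14, and the cKO change (adjusted p = 0.0325) no longer passed without cKO day 0 replicate 2 or 3 or cKO day 3 replicate 1, 2 or 3 (adjusted p of 0.0557 to 0.110).

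Whether the genotype effect itself changed from day 0 to day 3 was tested with an interaction term. It passed for 4 of 10 genes, all with the larger effect at day 3, where 16.8% of all genes were called and 9.94% were called in that direction. H2-K1 had a difference of 3.05 ± 0.28 (adjusted p = 4.46e-05), B2m 1.697 ± 0.15 (adjusted p = 4.46e-05), H2-D1 1.41 ± 0.21 (adjusted p = 9.16e-04) and Nlrc5 3.25 ± 0.59 (adjusted p = 0.00303). These are the 2 heavy chains, the light chain and the class I transactivator. The other 6 did not pass: Tapbp had a difference of 0.09 ± 0.12, Psmb8 of -0.07 ± 0.43, Psmb9 of -0.08 ± 0.48, Tap1 of -0.34 ± 0.31, Psmb10 of -0.43 ± 0.20 and Tap2 of -0.48 ± 0.20. The standard errors of Psmb8 and Psmb9 leave room for differences of either sign.

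**Figure D3:**
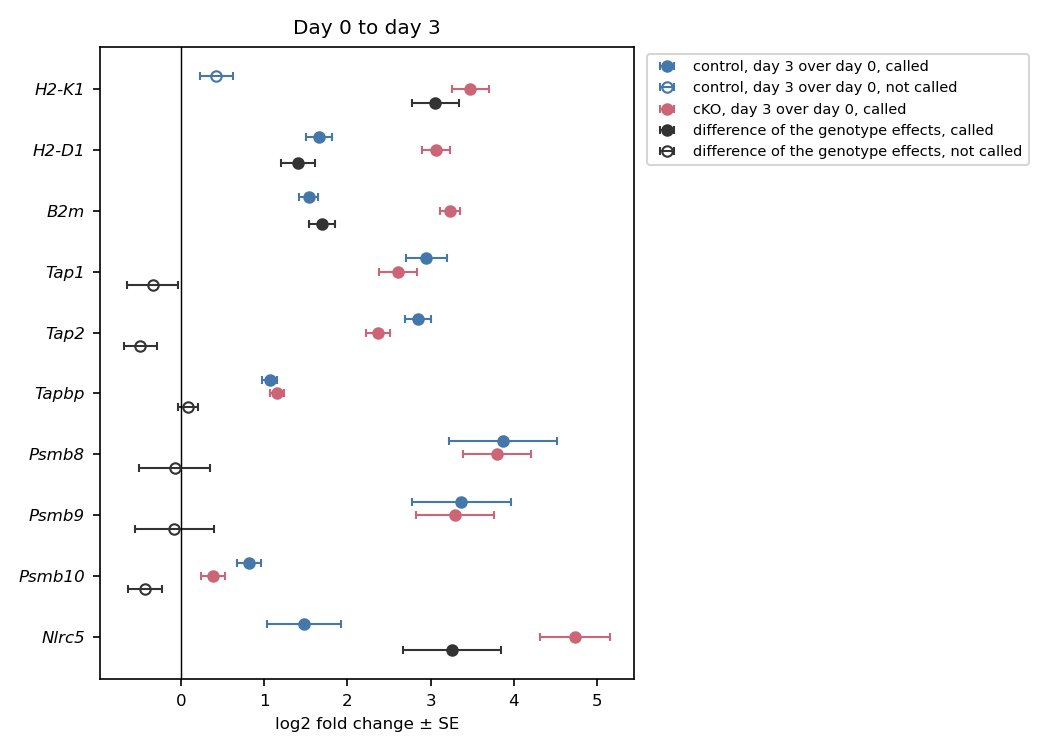
Log2 change from day 0 to day 3 in control (blue) and cKO (red) cultures, and the difference of the genotype effects, day 3 minus day 0 (black), with the standard error as bars; filled points passed an adjusted p under 0.05. Black points are filled for H2-K1, H2-D1, B2m and Nlrc5 (3.05, 1.41, 1.697 and 3.25) and open for the other 6 genes.

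In cartilage the heavy chains, B2m, Tap1, Tapbp, Psmb8 and Psmb10 were higher in cKO. H2-K1 stood at 28.5, 42.7, 48.6 and 76.2 CPM in control and 170.5, 352.5, 263.2 and 115.4 CPM in cKO cartilage. No library overlapped, and the fold was 4.52 (log2 2.18 ± 0.32, adjusted p = 4.92e-04). H2-D1 stood at 37.5, 52.9, 49.5 and 73.1 CPM in control and 147.8, 254.5, 207.8 and 118.9 CPM in cKO cartilage, a 3.37-fold difference (log2 1.75 ± 0.24, adjusted p = 2.06e-04). B2m stood at 324.2, 369.4, 421.0 and 454.1 CPM against 722.9, 1370, 1240 and 775.2 CPM (log2 1.40 ± 0.20, adjusted p = 4.08e-04). In all 3 genes replicates 2 and 3 were the highest cKO libraries. Replicate 2 is male and replicate 3 female.

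Tap1 was 5.11-fold higher in cKO cartilage, with 6.004, 4.27, 6.42 and 9.27 CPM in control and 29.4, 38.5, 49.95 and 21.5 CPM in cKO libraries (log2 2.35 ± 0.31, adjusted p = 1.53e-04). Tapbp was 2.11-fold higher, at 45.2 ± 6.80 CPM in control and 95.8 ± 13.3 CPM in cKO cartilage (SD, n = 4; log2 1.08 ± 0.16 SE, adjusted p = 3.94e-04). Psmb8 stood at 1.501, 2.56, 5.50 and 6.18 CPM in control, from 2 to 12 counts a library, and at 9.24, 39.4, 31.2 and 11.2 CPM in cKO cartilage (log2 2.45 ± 0.51, adjusted p = 0.00892). Tap1, Tapbp and Psmb8 did not overlap between genotypes. Psmb10 did overlap, with 8.26, 12.0, 5.50 and 7.21 CPM against 16.8, 23.6, 34.8 and 10.3 CPM, and its log2 value of 1.37 ± 0.36 passed narrowly (adjusted p = 0.0344). It no longer passed without control replicate 1, 3 or 4 or cKO replicate 2 or 3 (adjusted p of 0.0585 to 0.117), and without cKO replicate 3 the log2 value was 0.89.

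Tap2, Psmb9 and Nlrc5 had too few counts in cartilage for the main test. Tap2 stood at 3.75, 3.41, 7.34 and 6.18 CPM in control and 19.3, 28.0, 26.8 and 6.89 CPM in cKO cartilage, with replicate 4 of cKO inside the control range. Psmb9 had 0, 2, 1 and 3 counts in control and 3, 18, 20 and 4 counts in cKO libraries. Nlrc5 had 3, 1, 1 and 1 counts in control and 3, 7, 17 and 1 in cKO libraries. A gene at 3 counts or fewer is at the floor of 1.59 to 2.73 CPM in these libraries, and all 4 control libraries were there for Psmb9 and Nlrc5. With no expression filter, edgeR gave log2 values of 1.88 ± 0.31 for Tap2 (adjusted p = 2.02e-07), 3.04 ± 0.51 for Psmb9 (adjusted p = 2.02e-07) and 2.34 ± 0.58 for Nlrc5 (adjusted p = 0.00242). In that fit 10 of 10 genes were called higher, where 4.37% of all genes were called and 2.18% were called higher. DESeq2 gave 1.95 ± 0.50 for Tap2 (adjusted p = 0.00561), 3.22 ± 0.89 for Psmb9 (adjusted p = 0.0141) and 2.42 ± 0.97 for Nlrc5 (adjusted p = 0.221).

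**Figure D4:**
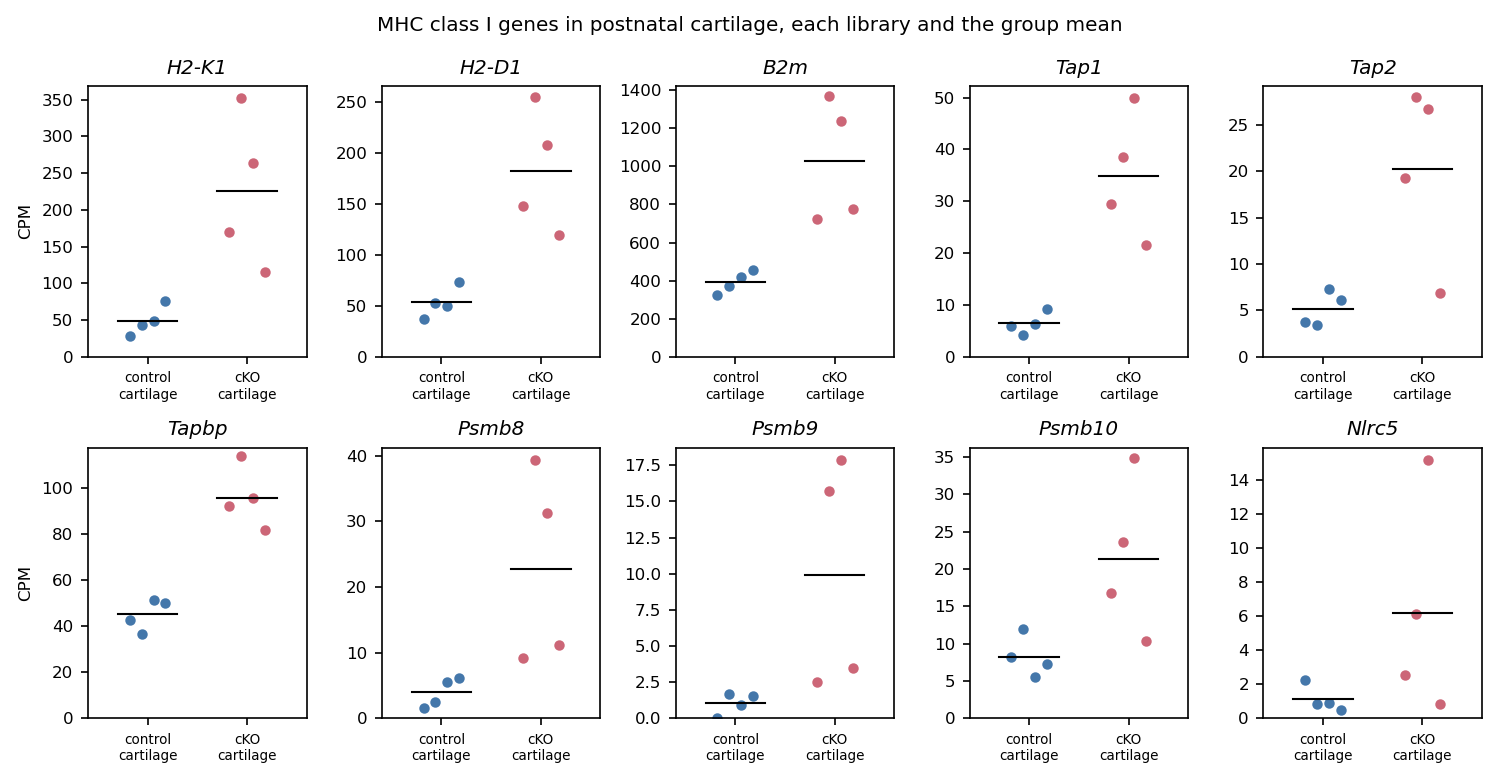
CPM of each of the 10 genes in the 8 cartilage libraries, on linear axes from 0 that differ between panels, with control in blue, cKO in red and the group mean as a black line; points run from replicate 1 on the left to replicate 4 on the right. For H2-K1 the control libraries lie between 28.5 and 76.2 CPM and the cKO libraries between 115.4 and 352.5 CPM.

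Markers of antigen-presenting and myeloid cells moved with some of these values, as did markers of some other cell types. In cartilage the summed level of 7 MHC class II markers was 44.5, 99.7, 93.7 and 62.9 CPM in cKO replicates 1 to 4 and 39.8 to 74.2 CPM in control, so that the 2 libraries highest for H2-K1 were also the highest for class II. Of these 7, 3 could be tested and 1 was called, H2-Ab1, a class II beta chain (log2 1.32 ± 0.28, adjusted p = 0.00885). The 3 tested had a median log2 value of -0.84, and the other 2 did not pass. H2-DMa stood at 10.5 to 29.9 CPM in control and 4.20 to 15.5 CPM in cKO cartilage. H2-DMb1 stood at 11.3 CPM or more in control and 5.88 to 12.1 CPM in cKO cartilage. H2-Aa, H2-Eb1 and Cd74 reached higher levels in cKO than in control cartilage. The sum of 10 myeloid markers was 29.4, 74.3, 71.4 and 28.4 CPM in cKO and 39.8 to 88.0 CPM in control cartilage, and 0 of the 1 tested marker, Lyz2, was called. In cKO replicates 1 and 4 the myeloid sum lay below every control library while H2-K1 stood at 170.5 and 115.4 CPM, above every control library. Cd74, the class II chaperone, stood at 2.25 to 4.27 CPM in control and 4.20 to 29.7 CPM in cKO cartilage, while Ciita, the class II transactivator, had 0 counts in control and at most 1 in cKO libraries. Erythroid and osteoclast sums were 8.40 to 314.9 and 57.9 to 116.9 CPM in cKO and 135.8 to 720.8 and 93.8 to 235.3 CPM in control cartilage.

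In the cultures the class II and myeloid sums were both separated by genotype at day 3, and of these only the myeloid sum was at day 0. At day 0 the class II sum was 10.3 to 13.2 CPM in control and 10.7 to 13.96 CPM in cKO, and the myeloid sum 3.06 to 4.18 against 7.32 to 8.34 CPM, with 5 of 6 tested myeloid markers higher. Over all genes tested, 33.0% were called higher at day 0 and 25.5% at day 3. At day 3 the class II sum was 6.84 to 9.50 CPM in control and 14.6 to 24.9 CPM in cKO cultures. The myeloid sum was 6.51 to 8.47 against 19.6 to 30.2 CPM, with 4 of 5 tested markers higher in cKO, among them Fcer1g, at 0.0543 to 0.137 CPM in control and 5.82 to 9.81 CPM in cKO. Tyrobp, another marker of the myeloid list, had 0 counts in all 8 day 3 libraries. The class II chain H2-Aa had at most 1 count in any day 3 library. Myoblast markers were 6.49 to 7.14 CPM in control and 42.2 to 54.4 CPM in cKO cultures at day 0, and 1.17 to 1.62 against 118.8 to 1484 CPM at day 3. H2-Ab1 was also higher in cKO at day 0 (log2 0.49 ± 0.16) and day 3 (1.996 ± 0.16). T and NK cell marker sums stayed at or below 1.38 CPM and B cell sums at or below 0.384 CPM in every culture. The part of such cells in the class I values of cultures and cartilage was not tested.

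The ratio of each inducible to its constitutive subunit within a library does not depend on scaling. At day 0 the log2 ratio of Psmb8 to Psmb5 was -10.5 ± 0.64 in control and -5.93 ± 0.40 in cKO cultures (SD, n = 3), a difference of 4.61. At day 3 it was -6.32 ± 0.50 and -2.17 ± 0.90 (SD, n = 4), a difference of 4.15, and in cartilage the difference was 2.66. The level of the ratio in cartilage depends on the table: Psmb5 stood at 14.6 ± 3.84 CPM in control and 12.1 ± 5.42 CPM in cKO by whole-number counts, and at 73.3 ± 3.35 and 66.5 ± 7.21 CPM by estimated counts. Psmb8, at 3.94 ± 2.26 and 22.8 ± 14.9 CPM by whole-number and 3.68 ± 1.62 and 18.8 ± 10.2 CPM by estimated counts, lay on average above Psmb5 in cKO by whole-number counts and below it by estimated counts, while the difference between genotypes was 2.36 with estimated counts. The ratio of Psmb9 to Psmb6 differed by 2.77, 2.43 and 2.73 in the same order. Genotypes did not overlap in these 6 comparisons. Control libraries held 0, 2, 1 and 3 counts of Psmb9 in cartilage and 3, 8 and 2 at day 0, and 2, 3 and 5 of Psmb8 at day 0. At so few counts the 0.5 added to each count and the depth of the library also shape the ratio. Psmb10 to Psmb7 differed by 0.80 at day 0 without overlap, and by 0.23 at day 3 and 1.40 in cartilage with overlap. Across the 9 comparisons none passed an exact two-sided permutation test after adjustment: the 6 without overlap for Psmb8 and Psmb9 reached the smallest p the design allows, 0.1 with 3 against 3 samples at day 0 and 0.0286 with 4 against 4 (adjusted p of 0.129 and 0.0643). Of the constitutive subunits, Psmb5 (log2 -0.19 ± 0.03) and Psmb6 (-0.12 ± 0.03) were slightly lower in cKO at day 0, and Psmb7 (0.01 ± 0.03) did not pass. At day 3 Psmb5 (0.12 ± 0.09), Psmb6 (-0.05 ± 0.10) and Psmb7 (0.14 ± 0.08) did not pass, nor in cartilage Psmb5 (-0.32 ± 0.27) and Psmb6 (-0.06 ± 0.13).

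**Figure D5:**
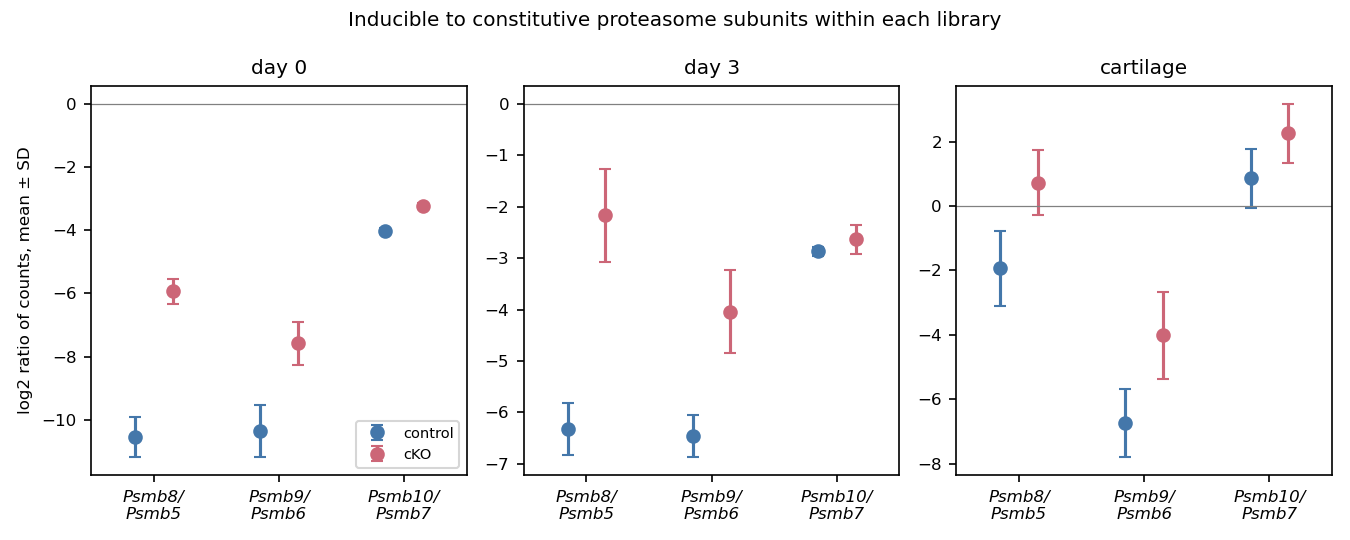
Log2 ratio of counts of Psmb8 to Psmb5, Psmb9 to Psmb6 and Psmb10 to Psmb7 within each library, as the mean with SD bars over 3 libraries a group at day 0 and 4 at day 3 and in cartilage, on vertical axes that differ between panels. The cKO mean (red) is above the control mean (blue) in all 9 pairs, by 0.23 to 4.61; cartilage levels of Psmb8 to Psmb5 and Psmb10 to Psmb7 are those of the whole-number table, where Psmb5 and Psmb7 are lower than in the estimated counts (Psmb7 4.47 against 70.8 CPM in control).

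The remaining steps of the pathway moved less uniformly. Of 11 genes for peptide trimming and class I loading, 6 were higher and 4 lower in cKO at day 0, 4 higher and 3 lower at day 3, and 1 of 10 tested was higher in cartilage. Over all genes tested, 33.0% were called higher and 31.6% lower at day 0, 25.5% and 22.6% at day 3, and 3.15% and 3.04% in cartilage. Erap1, the aminopeptidase that trims peptides in the endoplasmic reticulum, was higher in all 3 settings, by log2 values of 0.79 ± 0.04, 0.92 ± 0.11 and 1.24 ± 0.30. Tapbpl, a tapasin relative, was lower at day 0 (-1.04 ± 0.08), and the chaperone Hspa5 was lower at day 3 (-0.63 ± 0.10). Of 19 proteasome core and activator genes, 3 were higher and 3 lower at day 0, 5 higher and 0 lower at day 3, and 2 of 18 higher in cartilage. Psme1 and Psme2, which form the PA28 activator, were higher each time: Psme1 by 1.004 ± 0.05, 0.95 ± 0.18 and 1.002 ± 0.20, and Psme2 by 0.77 ± 0.05, 0.88 ± 0.12 and 0.82 ± 0.19. The list medians were 0.12, -0.18 and 0.10 for trimming and loading and 0.01, 0.09 and 0.11 for the proteasome, against 0.01 over all genes in each setting.

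Nonclassical class I genes and relatives were higher in 8 and lower in 4 of 14 tested at day 0, and higher in 8 and lower in 2 of 13 at day 3. Of all genes tested, 33.0% were called higher and 31.6% lower at day 0, and 25.5% and 22.6% at day 3. The list median was 0.50 at day 0 and 2.15 at day 3. H2-M3, which presents N-formyl peptides, was higher at day 0 by 2.48 ± 0.12, and the secreted relative Azgp1 was lower by -2.53 ± 0.32. At day 3 H2-Q6 was higher by 5.46 ± 0.45 and H2-Q4 by 3.99 ± 0.35. Genes of the H2-Q group are close copies of each other and of the heavy chains, and the authors' counting could have split reads among them. In cartilage 2 of these genes could be tested and 0 passed in the edgeR test.

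Of the regulators of class I transcription, 8 of 18 tested were higher and 1 lower at day 0, 9 higher and 2 lower at day 3, and 3 of 16 higher in cartilage. For this list and the receptors below, the shares of all genes called higher and lower were 33.0% and 31.6% at day 0. They were 25.5% and 22.6% at day 3, and 3.15% and 3.04% in cartilage. Irf7, an interferon-induced regulator of the interferon response, was higher in all 3 settings, by 2.32 ± 0.28, 3.16 ± 0.38 and 3.45 ± 0.38. Irf1 was higher in both cultures, by 1.63 ± 0.07 and 1.38 ± 0.12, and had a log2 value of 0.07 ± 0.27 in cartilage that did not pass (adjusted p = 0.903). Irf2 was higher at day 0 (0.39 ± 0.07) and day 3 (0.71 ± 0.10), with -0.01 ± 0.22 in cartilage. The RFX subunits, which bind class I promoters with NLRC5, did not rise together: Rfx5 was higher at day 0 (0.44 ± 0.06) with 0.06 ± 0.10 at day 3, Rfxank was lower at day 0 (-0.34 ± 0.07) and Rfxap lower at day 3 (-0.32 ± 0.11). No interferon gene of the list had enough counts to be tested. Among interferon receptors and their kinases, 4 of 9 tested genes were higher and 3 lower at day 0, 5 higher and 1 lower at day 3, and 0 of 7 passed in cartilage. Ifnlr1, a subunit of the interferon lambda receptor, was higher by 1.56 ± 0.33 and 1.41 ± 0.28, and the kinase Jak2 lower by -0.73 ± 0.05 and -0.89 ± 0.11.

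Position on chromosome 17 could be set beside function, since 6 of the 10 genes lie from the start of H2-K1 to the start of H2-D1. The annotation places 119 other genes there, class I and class II genes left out. Of these, 10 of 47 tested were higher and 19 lower in cKO at day 0, 7 of 43 higher and 8 lower at day 3, and 1 of 28 higher and 0 lower in cartilage. Among all genes tested, 33.0% were called higher and 31.6% lower at day 0, 25.5% and 22.6% at day 3, and 3.15% and 3.04% in cartilage. The list medians were -0.12, -0.06 and -0.04. The heat shock genes Hspa1b and Hspa1a were higher at day 0 by 3.42 ± 0.09 and 3.32 ± 0.10, the cartilage collagen Col11a2 was lower at day 3 by -3.96 ± 0.79 while Gpsm3 was higher by 2.34 ± 0.60, and the complement gene C4b was higher in cartilage by 1.73 ± 0.21.

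Levels per kilobase of exon set the genes beside each other in the cultures, whose libraries were made from whole transcripts. The length used was that of all annotated exons of a gene together. It was 2938 bases for H2-K1 and 5476 for Tap1, whose longest coding transcripts had 1619 and 2953, and 860 by either measure for B2m. The order and ties between genes below therefore depend on the length used. B2m was the highest in every group, from 99.8 ± 2.93 CPM per kilobase in control at day 0 to 974 ± 166 in cKO at day 3 (SD). In control cultures at day 0 H2-K1 (13.6 ± 1.33) and H2-D1 (12.7 ± 0.32) followed and did not differ beyond their spread. Tapbp (10.3 ± 0.63) and Psmb10 (4.60 ± 0.30) came next, Tap2 (0.686 ± 0.099) and Tap1 (0.644 ± 0.112) lay within each other's spread, and Nlrc5 (0.0471 ± 0.0209), Psmb9 (0.0256 ± 0.0181) and Psmb8 (0.0220 ± 0.0110) were lowest. In cKO cultures at day 3 the order was H2-D1 (261.0 ± 56.7), H2-K1 (165.1 ± 46.8), Tapbp (57.0 ± 4.50), Tap2 (18.6 ± 3.07), Psmb10 (10.6 ± 2.26), Tap1 (10.2 ± 3.11), Psmb8 (7.20 ± 3.13), Nlrc5 (1.92 ± 0.12) and Psmb9 (1.63 ± 0.72). Among these H2-D1 and H2-K1, the 3 genes Psmb10, Tap1 and Psmb8, and the pair Nlrc5 and Psmb9 were not separated beyond their spread. In cKO cultures at day 0 Tapbp (25.7 ± 1.35) stood above H2-K1 (14.8 ± 2.04), and Psmb9 (0.167 ± 0.0738) and Nlrc5 (0.0726 ± 0.0440), the lowest, were not separated beyond their spread. In control cultures at day 3 Tapbp (21.6 ± 2.16) and H2-K1 (18.3 ± 1.997), as well as Tap1 (4.98 ± 0.43) and Tap2 (4.95 ± 0.57), lay within each other's spread.

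Genes most like the mean profile of the 10 were ranked by the root mean square difference of standardised log2 CPM. Over the 14 cultures they were Parp9, Irf7, Irgm1, Bst2 and Rtp4, at 0.101 to 0.151 SD. For scale, the 10 genes themselves ran from 0.0862 SD for H2-D1 to 0.481 SD for Psmb10. Bst2, for example, stood at 2.33 ± 0.49 and 9.50 ± 1.46 CPM in control and cKO at day 0 and at 8.95 ± 1.22 and 85.8 ± 28.7 CPM at day 3 (SD). Over the 8 cartilage samples they were Igtp, Sgf29, Leprotl1, Dpy19l4 and Tcf4, at 0.177 to 0.226 SD, and Igtp, an immunity-related GTPase, stood at 2.16 ± 0.94 CPM in control and 31.5 ± 21.2 CPM in cKO cartilage (SD). These likenesses are descriptions over samples that share libraries and groups.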

How the data were processed

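RNA was sequenced from 14 chondrocyte cultures (stranded total RNA libraries) and 8 cartilage samples (barcoded oligo-dT 3′ libraries with molecular identifiers), per the labels' protocols. The files deposited for the cultures hold estimated counts, rounded here to whole numbers. For cartilage the authors gave whole-number counts, the main values here, and estimated counts, an alternative. The submitters' processing notes name the build GRCm38 and, for cartilage, UMI-tools 1.1.1, Trim Galore 0.6.7, HISAT2 2.2.1, featureCounts 2.0.1 and DESeq2 1.34.0. The aligner and counter of the cultures are not given in the sources used here. Genes were placed with GENCODE M21 on GRCm38, which matched 34582 of 34866 identifiers in the culture tables and 23884 of 23911 in the whole-number cartilage table.

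Models were fitted with edgeR 4.0.16 (quasi-likelihood, R 4.3.3). Libraries were scaled by TMM and genes kept by filterByExpr (10 counts, 15 in total), and p-values were adjusted by Benjamini-Hochberg over every gene kept. Day 0, day 3 and cartilage were fitted apart, the last with a term for sex, and 1 fit of the 14 cultures gave the day changes and the difference of the genotype effects. A standard error is the size of the log2 value over the root of its F statistic. Culture CPM are on the scale of the 14-sample fit. Ratios added 0.5 to each count, and similarity used log2(CPM + 0.5) of genes averaging a log2 CPM of 1 or more. Promoter windows were read from RefSeq, and for H2-K1, which had 2 entries, the first was taken. Alternatives were DESeq2 1.42.0, size factors by RLE, no expression filter, the replicate number as a block, and leaving out each library. The code was tested on simulated data. The 10 genes, the lists and the tests were chosen with earlier results of these data known. All 10 genes are named; of each list, genes called in 1 direction in all 3 genotype comparisons or among the 2 largest called changes are named, with Dnmt1, Psmb5, Psmb6, Psmb7, Irf1, Irf2 and the RFX genes. One gene that this rule would name is not reported here.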

Additional observations from a re-analysis of the deposited data

Results flagged for a closer look

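In 3 of 40 groups of 4 libraries, the lowest library of a gene lay far from the others. In each it was cKO day 3 replicate 4: Tap1 stood at 30.67 CPM against 61.4 to 66.7 CPM in the other cKO libraries, Psmb8 at 8.476 against 28.7 to 30.2 CPM, and Psmb9 at 2.076 against 6.78 to 7.65 CPM. Chance gives such a gap in about 1 of 20 groups. The same library held the least Dnmt1, 10.9 CPM against 22.2 to 35.7 CPM in the other cKO day 3 libraries, and the most summed osteoclast markers, 355.1 against 95.9 to 114.0 CPM. Of the 355.1 CPM, 349.8 were Ctsk alone, a gene that stood at 163.4 to 168.1 CPM in control cultures at day 0. Acp5 stood at 3.50 to 4.39 CPM and Calcr had 0 counts in the cKO day 3 libraries. The Nlrc5 level of replicate 4, 15.2 CPM, lay close to the 15.9 to 17.6 CPM of the others. Without it, all 10 genes were called higher in cKO at day 3, where 55.1% of all genes were called and 28.8% were called higher.

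The genotype effect differed between day 3 and day 0 for 4 genes, by log2 values of 3.054 for H2-K1, 1.409 for H2-D1, 1.697 for B2m and 3.252 for Nlrc5, by the interaction term of the fit. Without cKO day 3 replicate 4 the values were 3.23, 1.55, 1.79 and 3.30, and all 4 were still called. Of all genes in that fit, 27.3% were called and 15.7% were called in that direction.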

How the results depend on the processing

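The number of class I genes called was 7 at day 0 in every alternative, 9 or 10 at day 3, 6 to 10 in cartilage (10 with no expression filter, 8 with DESeq2), 8 to 10 for the control day change, 9 or 10 for the cKO day change and 4 or 5 for the difference of genotype effects. All were called higher except 1: the 5 under the replicate block hold 4 higher and 1 lower, Tap2. Of all genes, 38.1% to 64.5% were called in either direction in these fits at day 0, 30.2% to 57.8% at day 3 and 1.82% to 6.99% in cartilage. The shares were 32% to 65.9% for the control day change, 36.4% to 67.2% for the cKO day change and 7.83% to 27.3% for the difference of genotype effects. With single libraries left out, the difference of genotype effects of Psmb8 ran from -0.49 to 0.21 and that of Psmb9 from -0.79 to 0.29. Psmb10 in cartilage did not pass with DESeq2 (log2 1.38, adjusted p = 0.0610) or estimated counts (1.22, adjusted p = 0.0818). In 1 fit of all cultures, Psmb10 at day 3 passed (0.38, adjusted p = 0.0289). Exact ratio tests cannot go below 0.0571 with a library left out: at day 3 Psmb8 to Psmb5 ran from 3.99 to 4.60 and Psmb9 to Psmb6 from 2.25 to 2.82, and in cartilage they ran from 2.24 to 3.07 and from 2.21 to 3.15. With estimated counts Psmb10 to Psmb7 in cartilage was 1.33 (exact p = 0.0286); the cause was not tested.

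Replicate numbers were not shown to pair the samples: deviations from the group means of same-numbered samples correlated by -0.23 to 0.25. Samples with different numbers were not compared, so pairing cannot be decided. With the replicate block, the count of class I genes called was 7 in cartilage, where 6.55% of all genes were called. H2-K1 in control passed from day 0 to day 3 under the block (0.53, adjusted p = 0.0410), as did the difference for Tap2, with the smaller effect at day 3 (-0.49, adjusted p = 0.0266). The ratio differences under the block were 4.15 and 2.43 at day 3 and 2.66 and 2.73 in cartilage, where the smallest exact p is 0.125. Depth limits Psmb9, Nlrc5 and Tap2 in cartilage and Psmb8 and Psmb9 in day 0 controls.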
